A study of Mus musculus with 12 samples.

Results

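Amino acid transporters were followed in mouse primary hepatocytes through 9 genes of the solute carrier families, chosen by name: Slc38a2, Slc38a4, Slc38a3, Slc7a1, Slc7a2, Slc7a5, Slc43a1, Slc1a4 and Slc6a9. The choice was made with earlier results of these data known, so counts set beside the share of all genes are a description. All 9 were found among the 16728 genes of the deposited table, and all 9 passed the filter on low counts that left 12275 genes. The cells were Fxr-/- (KO) or wild type (WT), of the strain C57BL/6, and were cultured with serum and given FAC or AC at 100 µM for 24 h. The labels do not expand these abbreviations, and the series title names iron overload. Each of the groups KO FAC, KO AC, WT FAC and WT AC had 3 libraries, numbered 4 to 6 under FAC and 1 to 3 under AC. No label says whether libraries of a group came from separate animals or cultures, nor which exon was deleted in the Fxr-/- mice, their age or their sex. All p-values therefore measure the spread between these libraries, which may be technical.

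A hepatocyte takes up and releases amino acids across its plasma membrane through carriers that differ in what they move and in what drives them. System A carriers (Slc38a2 and Slc38a4) couple the uptake of small neutral amino acids such as alanine to sodium. System N (Slc38a3) moves glutamine, histidine and asparagine, and can run in either direction. Slc7a1 and Slc7a2 admit the cationic amino acids arginine, lysine and ornithine. Slc7a5 exchanges large neutral amino acids and works only when bound to the Slc3a2 heavy chain, whereas Slc43a1 lets branched-chain amino acids and phenylalanine pass by facilitated diffusion. Slc1a4 exchanges alanine, serine, cysteine and threonine, and Slc6a9 takes up glycine with sodium and chloride.

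Library totals ranged from 16464494 to 18335700 estimated reads. Nr1h4, the gene of Fxr, was still read in KO cells. It had 3.54 to 4.89 CPM (counts relative to library depth, from estimated reads and scaled library sizes) in KO FAC libraries against 6.95 to 7.69 CPM in WT FAC libraries, and 6.97 to 9.35 CPM in KO AC libraries against 13.0 to 15.6 CPM in WT AC libraries. It was also lower with FAC, at a log2 fold change of −0.88 in KO and −0.95 in WT cells (edgeR adjusted p = 0.00124 and 0.00063). WT FAC libraries overlapped KO AC libraries. Counts per gene, with the deleted part not given, do not test the deletion. On the third principal component, which held 7.42% of the variance, KO libraries were spread from 27.7 (KO FAC 6), 13.5 (KO AC 1) and 3.26 (KO FAC 5) to −9.63 (KO AC 3), −14.6 (KO AC 2) and −22.7 (KO FAC 4). Albumin stood at a mean of 9384 to 14825 FPKM (fragments per kilobase of transcript, scaled to library depth) in the 4 groups. Cps1, another defining hepatocyte gene, was at 4.35 FPKM in KO FAC, 2.90 in KO AC, 0.663 in WT FAC and 0.973 in WT AC cells. The summed level of 10 hepatocyte markers was 39612 to 41138 CPM in KO FAC libraries against 32008 to 33982 CPM in KO AC libraries, and 39511 to 41259 CPM in WT FAC libraries against 31828 to 33490 CPM in WT AC libraries. Between genotypes these sums overlapped, yet single markers differed. By an edgeR adjusted p under 0.05, 6 of the 10 were higher and 3 lower in KO than in WT cells under AC. Under FAC 6 were higher and 1 lower. The median log2 fold change of the markers was 1.11 under AC and 1.08 under FAC. Over all genes 42.9% passed under AC and 49.5% under FAC. The 7 macrophage markers summed to 728 to 864 CPM in KO FAC against 556 to 688 CPM in KO AC libraries, and to 653 to 704 CPM in WT FAC against 349 to 425 CPM in WT AC libraries. Cd68, which is also made by other cells, carried that sum, at a mean of 807 CPM in KO FAC, 631 in KO AC, 671 in WT FAC and 387 in WT AC cells. Adgre1 and Marco, which mark macrophages more closely, were at 2.23 CPM or less as group means and ran the other way. They were lower in KO than in WT cells under both treatments, and lower with FAC in WT cells, all past the test. The 5 cholangiocyte markers summed to 149 to 165 CPM in KO FAC against 343 to 387 CPM in WT FAC libraries, and to 92.4 to 104 CPM in KO AC against 385 to 403 CPM in WT AC libraries. Spp1 carried the lower sum in KO cells, at a mean of 82.4 CPM in KO FAC, 52.2 in KO AC, 337 in WT FAC and 361 in WT AC cells, whereas Krt19 and Sox9 were higher in KO than in WT cells under FAC. Endothelial markers summed to at most 30.9 CPM, stellate cell and fibroblast markers to at most 15.7 CPM and lymphocyte markers to at most 0.548 CPM in any library. The stellate cell and fibroblast sum was 4.51 to 6.69 CPM in KO FAC against 10.5 to 11.3 CPM in WT FAC libraries. Under AC it was 6.08 to 6.75 CPM in KO against 12.9 to 15.7 CPM in WT libraries. The endothelial sum was 23.1 to 30.9 CPM in WT FAC against 15.8 to 21.4 CPM in WT AC libraries. At most 2 genes of any list were at 0 throughout a group. The hepatocyte sum thus differed with FAC, and the macrophage and cholangiocyte sums, each led by 1 gene, with genotype and, in KO cells, with FAC (the macrophage sum also in WT cells). The low stellate cell and fibroblast sum differed with genotype and, in WT cells, with FAC, and the low endothelial sum with FAC in WT cells. The part of all these sums in the results below was not tested. In these bulk samples fewer cells of a type and less RNA per cell cannot be told apart.

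The genes lie on 7 chromosomes (GRCm38.p6): Slc43a1 on 2, Slc6a9 on 4, Slc7a1 on 5, Slc7a2 and Slc7a5 on 8, Slc38a3 on 9, Slc1a4 on 11, and Slc38a2 and Slc38a4 on 15. Slc38a2 (chr15:96687392-96699728) and Slc38a4 (chr15:96994816-97055956) are near neighbours on the same strand, separated by 295088 bases that hold no protein-coding gene in RefSeq. RefSeq promoter windows, from 250 bases before to 50 after a transcript start, were given for 6 of the 9 genes, 11 windows in all. Of these, 3 are shown up to the start of transcription, since Slc38a2 and Slc38a4 are the system A pair compared throughout and Slc43a1 held the one motif found. Capitals mark CpG dinucleotides in the first and second, and an E-box in the third.
Slc38a2 (chr15:96699729-96699978, minus strand): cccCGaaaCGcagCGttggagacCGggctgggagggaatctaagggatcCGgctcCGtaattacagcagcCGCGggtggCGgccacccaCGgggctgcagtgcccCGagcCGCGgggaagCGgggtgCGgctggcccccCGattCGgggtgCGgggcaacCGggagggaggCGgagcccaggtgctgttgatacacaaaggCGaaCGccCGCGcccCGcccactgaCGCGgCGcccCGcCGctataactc
Slc38a4 (chr15:97055957-97056206, minus strand): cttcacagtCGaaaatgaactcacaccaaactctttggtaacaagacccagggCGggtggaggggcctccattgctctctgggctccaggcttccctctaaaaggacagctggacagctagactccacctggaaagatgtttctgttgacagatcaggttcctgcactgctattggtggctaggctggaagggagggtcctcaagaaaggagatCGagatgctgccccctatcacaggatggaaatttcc
Slc43a1 (chr2:84840073-84840322, plus strand): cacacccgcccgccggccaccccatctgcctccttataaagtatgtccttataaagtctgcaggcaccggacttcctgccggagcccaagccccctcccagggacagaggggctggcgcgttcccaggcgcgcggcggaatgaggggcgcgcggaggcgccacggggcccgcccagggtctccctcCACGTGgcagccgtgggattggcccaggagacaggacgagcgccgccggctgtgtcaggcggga
The system A pair differ in base composition. The whole Slc38a2 window held 41 CpG dinucleotides, as many as or more than 97% of the 32851 windows, against 5 in each of the 3 Slc38a4 windows and a median of 7 over all. A search of both strands for TGATGNAAT (the C/EBP-ATF response element), TGACGTCA (the cAMP response element) and CACGTG (the E-box) found the first and second in 0 of the 11 windows, where 0.965% and 1.79% of all windows held them. The E-box was in 1 of the 11, at base −64 of Slc43a1 and overlapping no other match, against 7.15% of all windows. No match says only that these letters are not in this window.

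Compared per length, Slc38a4 was the most abundant of the transporters in every group and Slc43a1 the least. Slc38a4 averaged 87.4 ± 3.7 FPKM in KO FAC, 108 ± 3 in KO AC, 66.2 ± 1.3 in WT FAC and 112 ± 2 in WT AC cells (SD, n = 3 each). Slc6a9 and Slc38a2 followed at 42.8 and 37.9 FPKM in KO FAC, 47.1 and 36.9 in KO AC, 50.003 and 53.6 in WT FAC and 49.0 and 45.9 in WT AC cells. Their ranges overlapped in KO FAC, WT FAC and WT AC cells. Compared within each library, Slc6a9 was the higher throughout KO AC cells. Slc38a2 was the higher throughout WT FAC cells, by little in WT FAC 5 (52.81 against 52.29 FPKM). In KO FAC and WT AC cells the order differed between libraries. Slc1a4 (21.9 to 27.1 FPKM as group means) and Slc7a2 (19.0 to 24.2 FPKM) overlapped in every group. Slc38a3 lay level with them in KO cells, at 27.5 FPKM under FAC and 20.5 FPKM under AC, and below them in WT cells, at 9.56 FPKM under FAC and 16.2 FPKM under AC. Slc7a5 (4.69 to 5.64 FPKM), Slc7a1 (1.95 to 3.09 FPKM) and Slc43a1 (0.367 to 1.30 FPKM) closed the order in all groups.

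**Figure D1:**
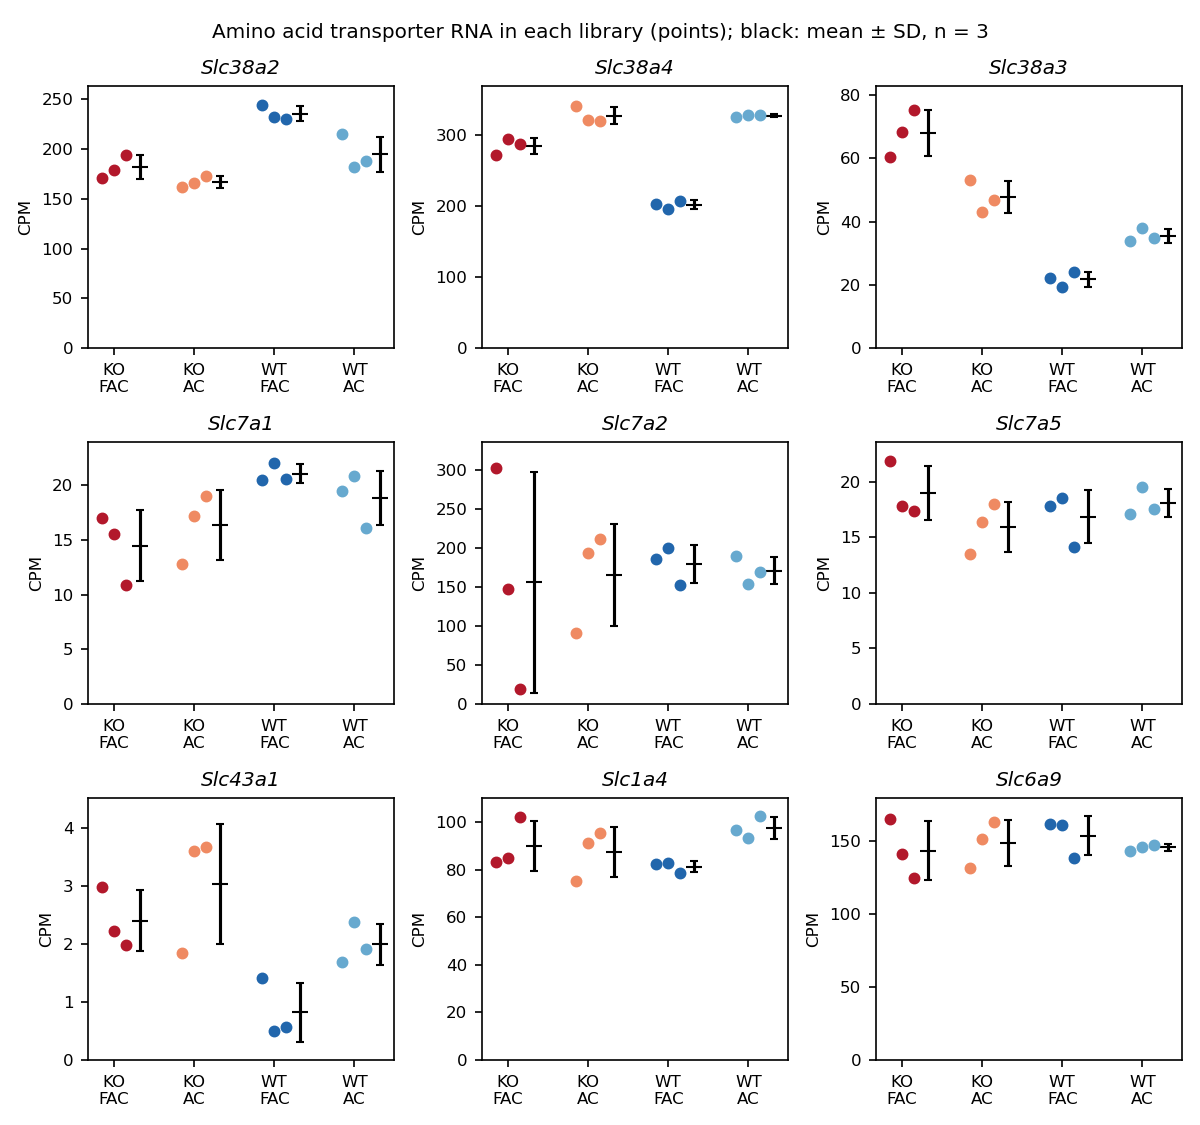
CPM of each of the 9 transporter genes in every library (points, 3 per group, KO FAC, KO AC, WT FAC and WT AC from left to right), with the group mean ± SD in black and axes from 0. Slc38a4 and Slc38a3 show WT FAC libraries below all others, and Slc7a2 spreads from 19.0 to 303 CPM within KO FAC.

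The question put to WT cells was how FAC changed their transporters. Slc38a4, Slc38a3 and Slc43a1 fell, Slc38a2 rose, and the other 5 did not pass (4 of 9 called, where 17.2% of all 12275 genes were called at an edgeR adjusted p under 0.05). By direction 1 was higher, where 8.7% of all genes were, and 3 were lower, where 8.55% were. The median log2 fold change was −0.10 over the 9 genes and −0.00239 over all genes. Slc38a4 had 203, 196 and 208 CPM in WT FAC libraries, against 326, 329 and 328 CPM in WT AC libraries. The groups were far apart and each was tight, and the change was −0.70 ± 0.05 on the log2 scale (SE, with an edgeR adjusted p of 5.33e-06). Slc38a3 had 22.02, 19.2 and 24.0 CPM in WT FAC libraries, against 33.9, 38.1 and 34.8 CPM in WT AC libraries. Every FAC library lay below every AC library, at a log2 fold change of −0.71 ± 0.11 (edgeR adjusted p = 0.000758).

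Slc38a2, the system A carrier known to be induced when cells run short of amino acids, moved the other way in WT cells. It had 244, 233 and 230 CPM in WT FAC libraries, against 215, 182 and 188 CPM in WT AC libraries. The groups did not overlap, but the rise was small, 0.27 ± 0.07 on the log2 scale (edgeR adjusted p = 0.0191). The call did not survive leaving out AC library 2 or 3 (edgeR adjusted p = 0.0837 and 0.0881) or FAC library 4 or 5 (0.0829 and 0.052), nor the use of log2(FPKM + 1) (limma adjusted p = 0.0768) or log2(TPM + 1) (limma adjusted p = 0.285, with a log2 fold change of 0.15). Slc43a1 had 25, 9 and 10 estimated reads in WT FAC libraries, against 31, 44 and 35 in WT AC libraries. These low counts gave a log2 fold change of −1.27 ± 0.39 (edgeR adjusted p = 0.039). The call was lost without any one of 5 of the 6 WT libraries, the exception being WT FAC 4 (edgeR adjusted p from 0.0585 without WT AC 1 to 0.154 without WT FAC 5). Slc1a4 had 82.6, 82.6 and 78.6 CPM in WT FAC libraries, against 96.6, 93.3 and 103 CPM in WT AC libraries. Its libraries did not overlap, yet at −0.26 ± 0.09 it missed the threshold (edgeR adjusted p = 0.0738). A fit of the WT libraries alone placed it past it (edgeR adjusted p = 0.00544). Libraries did not overlap for 5 of the 9 genes, against 43.2% of all genes.

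The same question in KO cells gave a different set. Slc38a3 rose and Slc38a4 fell, and the remaining 7 did not pass (2 of 9 called, where 29.6% of all genes were). That is 1 higher, against 15% of all genes, and 1 lower, against 14.6%. The median over the 9 was −0.05, and −0.00198 over all genes. Slc38a3 had 60.4, 68.4 and 75.2 CPM in KO FAC libraries, against 53.2, 43.2 and 46.9 CPM in KO AC libraries. Its libraries did not overlap, at a log2 fold change of 0.51 ± 0.11 (edgeR adjusted p = 0.00311). Slc38a4 had 272, 295 and 287 CPM in KO FAC libraries, against 341, 322 and 320 CPM in KO AC libraries. It was lower in all 3 FAC libraries, by a smaller step than in WT cells (−0.20 ± 0.05, edgeR adjusted p = 0.0139). That call was lost without KO FAC 4 (edgeR adjusted p = 0.0631), when KO libraries were fitted by themselves (0.0779), and without KO AC 1 together with KO FAC 6 (0.064) or KO FAC 4 (0.123). Slc38a2 had 171, 179 and 195 CPM in KO FAC libraries, against 162, 166 and 173 CPM in KO AC libraries. The ranges overlapped, and its log2 fold change of 0.12 ± 0.07 did not pass (edgeR adjusted p = 0.221). Libraries did not overlap for 2 of the 9 genes, against 38.8% of all.

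**Figure D2:**
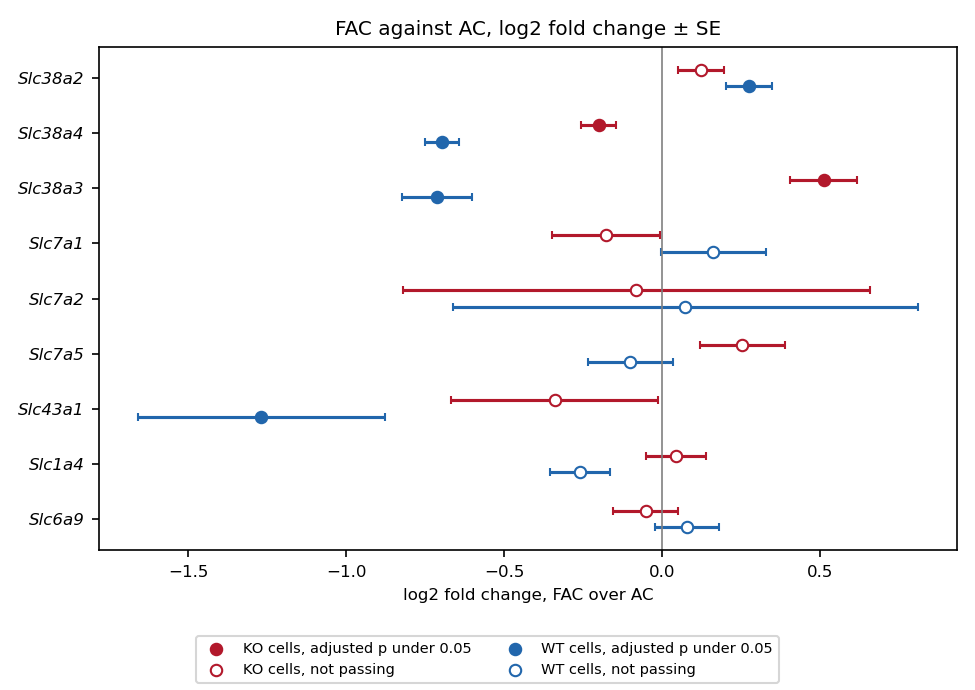
Log2 fold change of FAC over AC with its SE for each transporter, in KO cells (red, upper) and WT cells (blue, lower). Filled points passed an edgeR adjusted p of 0.05. Slc38a3 stands at 0.51 in KO and −0.71 in WT cells, and Slc38a4 at −0.20 in KO and −0.70 in WT cells.

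The difference between these responses was tested directly, as the effect of FAC in KO minus that in WT cells. It passed for Slc38a3 and Slc38a4 and for none of the other 7 (2 of 9, where 3.15% of all genes were called). Both values were positive, where 1.87% of all genes were called in that direction. Slc1a4 came next, at 0.31 ± 0.13 (edgeR adjusted p = 0.233). For Slc38a3 the difference was 1.22 ± 0.15 on the log2 scale (edgeR adjusted p = 0.00124), with opposite directions in KO and WT cells. For Slc38a4 it was 0.50 ± 0.08 (edgeR adjusted p = 0.00658), with the same direction and unequal size. Both calls were kept in every alternative fit, with adjusted p up to 0.0112 for Slc38a3 and 0.0453 for Slc38a4. For Slc38a2 the difference was −0.15 ± 0.10 (95% interval −0.37 to 0.07), and for Slc43a1 0.93 ± 0.51 (−0.17 to 2.03), so neither a shared nor an unequal response is shown for them.

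A ratio within a library does not depend on how libraries are scaled. The FPKM of Slc38a4 relative to Slc38a2 was 2.37, 2.41 and 2.16 in KO FAC libraries, against 3.13, 2.91 and 2.77 in KO AC libraries. In WT cells it was 1.19, 1.23 and 1.29 in FAC libraries, against 2.21, 2.63 and 2.56 in AC libraries. FAC thus went with a lower ratio in every library of both genotypes, and the WT FAC libraries stood below all others. The ratio of Slc38a3 to Slc38a2 averaged 0.723 ± 0.035 in KO FAC and 0.555 ± 0.073 in KO AC cells, and 0.179 ± 0.022 in WT FAC and 0.355 ± 0.049 in WT AC cells (SD, n = 3 each). It was higher with FAC in KO cells and lower with FAC in WT cells, without overlap. These ratios were chosen after the values were seen and carry no test.

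**Figure D3:**
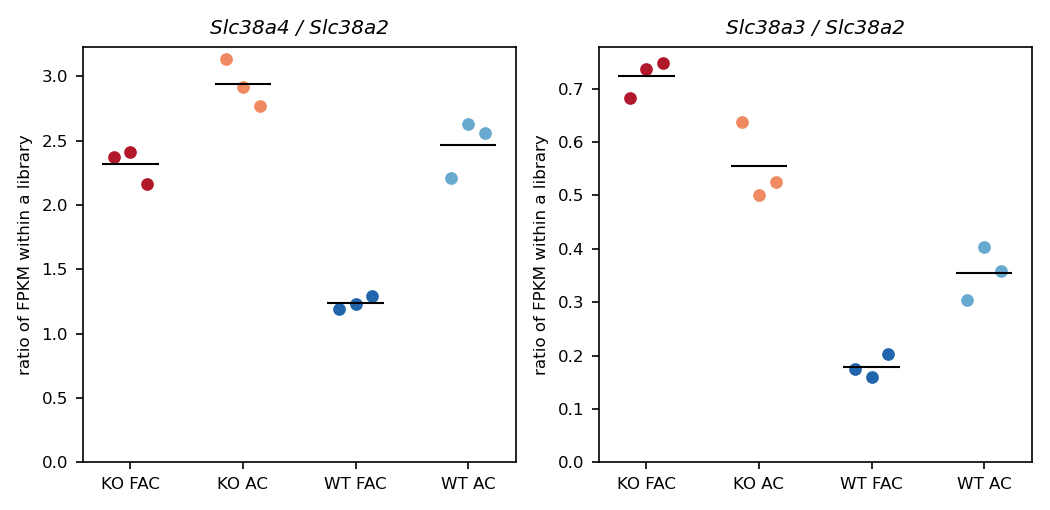
Ratio of FPKM within each library (points; line, group mean; axes from 0) of Slc38a4 to Slc38a2, left, and of Slc38a3 to Slc38a2, right. The WT FAC libraries are lowest in both, at 1.19 to 1.29 and 0.159 to 0.202.

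Genotypes were compared under each treatment. Under AC, Slc38a3 was higher and Slc38a2 lower in KO than in WT cells, and 7 genes did not pass (2 of 9 called, where 42.9% of all genes were). That is 1 higher, against 21.7% of all genes, and 1 lower, against 21.2%. The median over the 9 was −0.05, and −0.0033 over all genes. Slc38a3, with the AC values given above, had a log2 fold change of 0.42 ± 0.11 (edgeR adjusted p = 0.00629). Slc38a2 was at −0.22 ± 0.07 (edgeR adjusted p = 0.024), and its call was lost without WT AC 1 (0.121), KO AC 1 (0.0609) or KO AC 2 (0.0658). The level of Slc38a4 differed by −0.00 ± 0.05, with a 95% interval from −0.12 to 0.12. Slc43a1 had 32, 65 and 63 estimated reads in KO AC libraries, against 31, 44 and 35 in WT AC libraries. It did not pass (0.60 ± 0.33, edgeR adjusted p = 0.156), but did without KO AC 1 (0.86, edgeR adjusted p = 0.039). Libraries did not overlap for 2 of the 9, against 53% of all genes.

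Under FAC, Slc38a3, Slc43a1 and Slc38a4 were higher and Slc7a1 and Slc38a2 lower in KO than in WT cells (5 of 9 called, where 49.5% of all genes were; median 0.15 over the 9 and −0.0112 over all). That is 3 higher, against 24.6% of all genes, and 2 lower, against 24.9%. Slc38a3 was 3.13-fold higher, at a mean of 68.0 ± 7.4 CPM in KO FAC and 21.7 ± 2.4 CPM in WT FAC cells (SD, n = 3; log2 fold change 1.65 ± 0.11, edgeR adjusted p = 5.59e-08). Slc38a4 averaged 285 ± 12 CPM in KO FAC and 202 ± 6 CPM in WT FAC cells (0.50 ± 0.05, edgeR adjusted p = 7.64e-06). Slc43a1 had 49, 34 and 34 estimated reads in KO FAC libraries, against 25, 9 and 10 in WT FAC libraries (1.53 ± 0.39, edgeR adjusted p = 0.00501). Slc38a2 averaged 182 ± 12 CPM in KO FAC and 236 ± 8 CPM in WT FAC cells (−0.38 ± 0.07, edgeR adjusted p = 0.000797). Slc7a1, the widely expressed cationic carrier that is low in liver, had 17.0, 15.6 and 10.8 CPM in KO FAC libraries, against 20.4, 22.01 and 20.6 CPM in WT FAC libraries. Its call (−0.54 ± 0.17, edgeR adjusted p = 0.0175) was lost without WT FAC 5 (0.0546) or KO FAC 6 (0.0657). Libraries did not overlap for 6 of the 9, the sixth being Slc1a4, against 59.1% of all genes. The comparisons under FAC and under AC share no libraries, but each shares libraries with the FAC comparisons above.

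**Figure D4:**
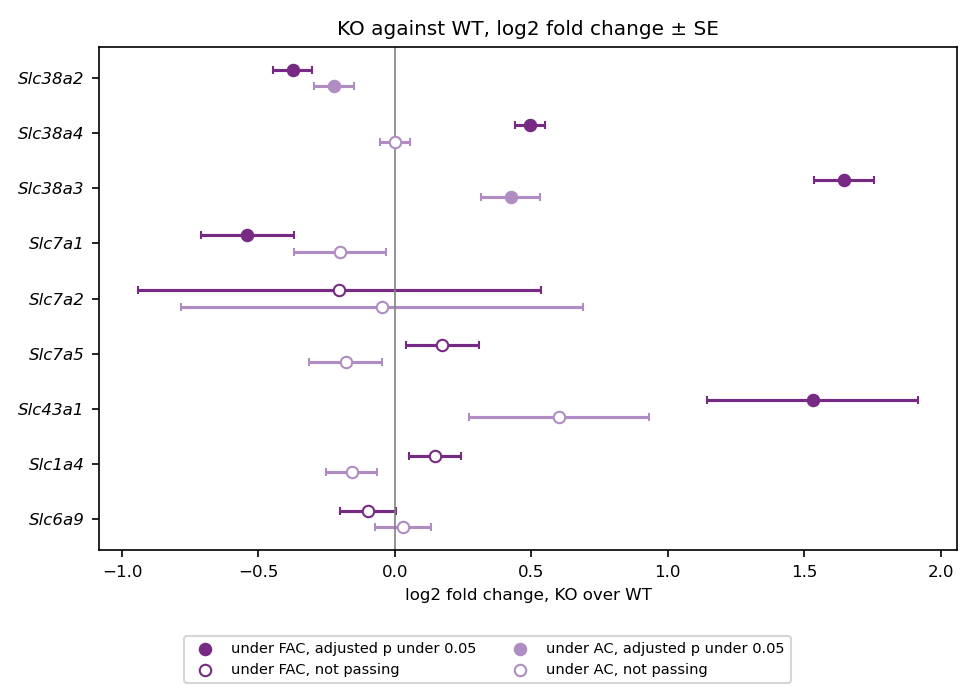
Log2 fold change of KO over WT with its SE for each transporter, under FAC (dark, upper) and under AC (light, lower). Filled points passed an edgeR adjusted p of 0.05. Under FAC 5 genes passed, from −0.54 (Slc7a1) to 1.65 (Slc38a3), and under AC only Slc38a2 (−0.22) and Slc38a3 (0.42).

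Slc7a2, which encodes the cationic carrier typical of liver, varied more between KO libraries than between group means. It had 303, 147 and 19.0 CPM in KO FAC libraries 4, 5 and 6, and 90.9, 193 and 212 CPM in KO AC libraries 1, 2 and 3. In WT cells it had 187, 201 and 153 CPM under FAC and 189, 154 and 169 CPM under AC. Its SD on the log2 scale within KO FAC was 2.07, at the 99.8th percentile of all tested genes, against a median of 0.15. Within KO AC it was 0.67, within WT FAC 0.20 and within WT AC 0.15. It was lowest in KO FAC 6 and KO AC 1, the highest on the third component, and highest in KO FAC 4, the lowest on it. Over the 12 libraries its correlation with that component was −0.79, a description over libraries that share the component. No comparison called Slc7a2, with log2 fold changes of −0.08 ± 0.74 for FAC in KO and 0.07 ± 0.74 for FAC in WT cells (edgeR adjusted p = 0.946 and 0.961). The SE in WT cells is set by the spread shared over all groups. The value for KO cells was −0.995 without KO FAC 4 and 0.45 without KO FAC 6, so no level of change is given for this gene.

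The glycine carrier Slc6a9 had the narrowest range of group means of the 9, 0.11 on the log2 scale, and no comparison called it. It had 165, 141 and 124 CPM in KO FAC, 132, 151 and 163 CPM in KO AC, 162, 161 and 138 CPM in WT FAC, and 143, 146 and 147 CPM in WT AC libraries. Slc6a9 correlated with the third component at −0.88 over the 12 libraries of both genotypes, group means included. Without KO AC 1 and KO FAC 4 it passed as lower with FAC in KO cells (−0.24, edgeR adjusted p = 0.0419) and lower in KO than in WT cells under FAC (−0.20, edgeR adjusted p = 0.0433). So did Slc7a1 with FAC in KO cells (−0.45, edgeR adjusted p = 0.0297) and in the difference of the responses (−0.62, edgeR adjusted p = 0.0445). Slc1a4 passed there as higher in KO than in WT cells under FAC (0.21, edgeR adjusted p = 0.0382). In that subset treatment coincides with the division on the third component, so they cannot be told apart there. Slc7a5 had 21.8, 17.8 and 17.4 CPM in KO FAC, 13.5, 16.4 and 18.0 CPM in KO AC, 17.8, 18.6 and 14.1 CPM in WT FAC, and 17.1, 19.5 and 17.6 CPM in WT AC libraries. All of its ranges overlapped, and the widest 95% interval of its single comparisons, for FAC in KO cells, ran from −0.04 to 0.54. In the fit of all libraries Slc1a4 did not pass in KO cells under FAC (0.04 ± 0.09) nor between genotypes (−0.16 ± 0.09 under AC and 0.15 ± 0.10 under FAC).

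Some of the transporters varied together over the libraries once group means were taken off. Deviations of log2 CPM from the group mean correlated over the 12 libraries at 0.91 between Slc6a9 and Slc7a5, 0.83 between Slc7a1 and Slc7a2, 0.83 between Slc7a2 and Slc6a9, and 0.82 between Slc38a3 and Slc38a4. Slc38a4 ran against Slc7a5 (−0.85) and Slc6a9 (−0.80), and Slc38a3 against Slc6a9 (−0.79) and Slc7a2 (−0.70). Slc38a2 went with none of them beyond 0.54 (Slc1a4). These values rest on libraries that share depth and the division of KO cells, and are a description. For Slc7a2 they rest mostly on KO libraries. Its deviations ran from −2.31 to 1.68 in KO FAC, against −0.23 to 0.17 in WT libraries.

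**Figure D5:**
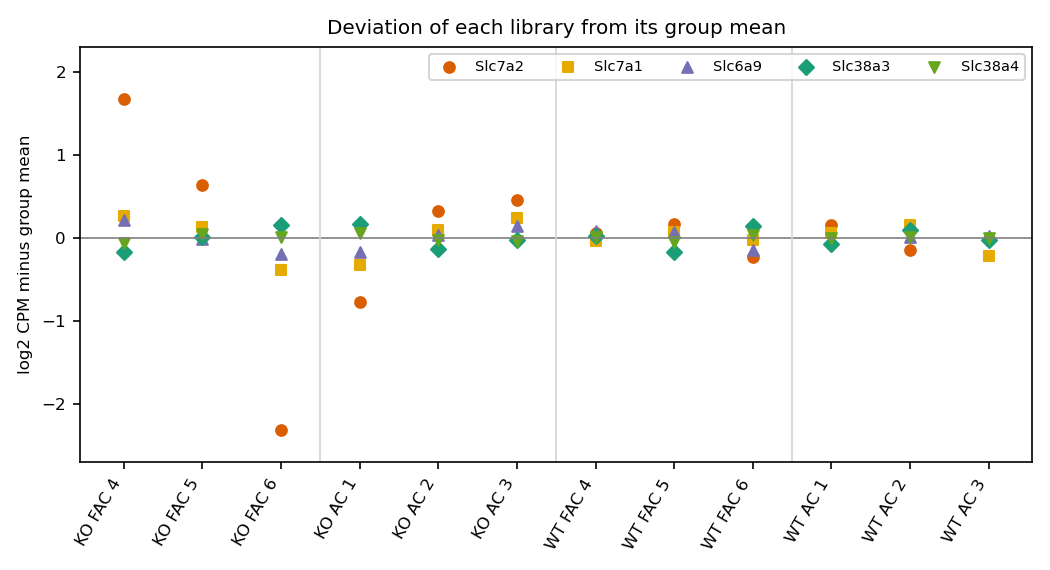
Log2 CPM of 5 transporters minus the mean of their group, for each of the 12 libraries, with grey lines between groups. Slc7a2 (orange), Slc7a1 (yellow) and Slc6a9 (purple) are low in KO FAC 6 and KO AC 1 and high in KO FAC 4, while Slc38a3 (green diamonds) is high in KO FAC 6 and KO AC 1 and low in KO FAC 4.

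Likeness to other genes was measured by Pearson's r of log2 CPM over the 12 libraries, for the 3 transporters with the widest range of group means and against genes with at least 5 FPKM on average. Slc38a3 was most like Aldh6a1, a mitochondrial enzyme of valine breakdown (0.98), Pglyrp2, a peptidoglycan-cleaving enzyme of serum (0.98), and Vim, which encodes vimentin (0.97). Slc7a2 was most like Irak3, an inhibitor of Toll-like receptor signalling (0.97), the casein kinase gene Csnk1e (0.96) and Gsap (0.96). Irak3 itself had 159, 102 and 23.3 CPM in KO FAC 4, 5 and 6, an order that its choice by r over these same libraries already favours. Slc43a1 was most like Slc9a8, a sodium-proton exchanger (0.93), Nhlrc2 (0.92) and Upf1, of nonsense-mediated decay (0.91). The genes named are those with the highest r of 7622 compared (7623 for Slc43a1), so these values describe the libraries and carry no test.

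Slc3a2, the heavy chain without which Slc7a5 does not reach the surface, was far more abundant than Slc7a5 and changed where Slc7a5 did not pass. Its level was not compared with that of other light chains. It had 1219, 1131 and 974.9 CPM in KO FAC libraries, against 593, 734 and 673 CPM in KO AC libraries (0.73 ± 0.10, edgeR adjusted p = 0.000169). In WT cells it had 888, 880 and 735 CPM in FAC libraries, against 611, 635 and 642 CPM in AC libraries (0.41 ± 0.10, edgeR adjusted p = 0.0117, and 0.0523 without WT FAC 4 and 0.053 without WT FAC 5). FAC libraries were above AC libraries in both genotypes, and the difference of the responses did not pass (0.33 ± 0.14, edgeR adjusted p = 0.21). Under FAC, Slc3a2 was higher in KO than in WT cells (0.41 ± 0.10, edgeR adjusted p = 0.00331). Under AC it did not pass between genotypes (0.08 ± 0.10, edgeR adjusted p = 0.514). Per length, Slc3a2 averaged 526 FPKM and Slc7a5 5.25 FPKM in KO FAC cells.

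Of 40 other amino acid transporters listed, 33 were matched and 23 tested. FAC in KO cells went with 8 higher and 3 lower, where 29.6% of all genes were called, and FAC in WT cells with 4 higher and 2 lower, where 17.2% were. The list medians were 0.18 in KO and 0.08 in WT cells. Slc7a3, a further cationic carrier, was low throughout and rose in KO cells, at 2.80 ± 0.55 CPM under FAC and 0.684 ± 0.065 CPM under AC (2.02 ± 0.23, edgeR adjusted p = 5.59e-05). In WT cells it also rose, at 3.85 ± 0.52 CPM under FAC and 2.21 ± 0.03 CPM under AC (0.79 ± 0.19, edgeR adjusted p = 0.0111, and 0.0522 without WT FAC 6). The betaine carrier Slc6a12 rose in KO cells (0.94 ± 0.13) and WT cells (0.55 ± 0.13, a call that needed each of AC libraries 1 and 3 and FAC library 6). Slc38a10 fell in KO (−0.19 ± 0.06) and in WT cells (−0.30 ± 0.06). The neighbour of Slc38a2 on chromosome 15, Slc38a1, had 10.8 ± 3.8 CPM in KO FAC and 5.36 ± 1.43 CPM in KO AC cells (1.01 ± 0.24, edgeR adjusted p = 0.00744), with overlapping libraries and a call lost when KO libraries were fitted by themselves (0.053).

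Between KO and WT cells 4 of the 23 were higher and 6 lower under AC, and 7 higher and 4 lower under FAC. These counts are near the shares of all genes called, 42.9% under AC and 49.5% under FAC. Slc3a1, the heavy chain that partners the cystine and dibasic amino acid carrier of kidney, averaged 36.8 ± 3.6 CPM in KO FAC and 2.23 ± 0.52 CPM in WT FAC cells (4.04 ± 0.20, edgeR adjusted p = 2.36e-09). Under AC it averaged 22.9 ± 0.8 CPM in KO and 1.78 ± 0.73 CPM in WT cells (3.68 ± 0.21). The glutamate carrier Slc1a2 was higher in KO cells under FAC (1.73 ± 0.18) and under AC (1.78 ± 0.18). The cystine-glutamate exchanger Slc7a11 averaged 379 ± 78 CPM in KO FAC and 1029 ± 53 CPM in WT FAC cells, and was lower under FAC (−1.44 ± 0.21) and AC (−1.52 ± 0.21). Slc43a2, the close relative of Slc43a1, was lower in KO cells under FAC (−1.35 ± 0.19) and AC (−1.04 ± 0.19), whereas Slc43a1 was higher under FAC.

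The amino acid response, in which ATF4 switches on genes of amino acid supply when an eIF2α kinase senses a shortage, was read from 31 genes. The list also holds several eIF2α kinase genes and stress genes such as Ddit3, and a shortage of amino acids was not tested. With FAC 16 of them rose and 1 fell in KO cells (median 0.30), and 14 rose and none passed as lower in WT cells (median 0.23). Over all genes 29.6% were called in KO cells (15% higher) and 17.2% in WT cells (8.7% higher). Of the 31, 9 were higher and 11 lower in KO than in WT cells under AC, where 42.9% of all genes were called. Under FAC 10 were higher and 8 lower, where 49.5% of all genes were called. Phgdh, the first enzyme of serine synthesis, averaged 70.5 ± 1.7 CPM in KO FAC and 26.3 ± 1.7 CPM in KO AC cells (1.42 ± 0.07, edgeR adjusted p = 1.46e-07). Psat1, the next enzyme, averaged 126 ± 10 CPM in KO FAC and 60.1 ± 5.7 CPM in KO AC cells (1.07 ± 0.09). Phgdh was higher in WT cells under each treatment, and Psat1 under AC. Under FAC the mean ± SD of Psat1 overlapped between genotypes. Phgdh averaged 100 ± 5 CPM in WT FAC and 71.6 ± 3.2 CPM in WT AC cells, and Psat1 137 ± 11 and 122 ± 5 CPM. Ddit3, the stress transcription factor CHOP, averaged 71.5 ± 2.8 CPM in WT FAC and 20.5 ± 2.8 CPM in WT AC cells (1.80 ± 0.09, edgeR adjusted p = 5.43e-08). Beside them stood Slc38a2, a known target of that response, at 0.12 in KO (not passing) and 0.27 in WT cells, and Slc7a5, another, at 0.25 in KO and −0.10 in WT cells, neither passing.

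Enzymes that use the carried amino acids were listed as 30 genes, of which 27 were tested. FAC went with 8 higher and 4 lower in KO cells (29.6% of all genes called) and 5 higher and 5 lower in WT cells (17.2%). Under FAC 13 were higher and 8 lower in KO than in WT cells, and under AC 12 were higher and 6 lower, where 49.5% and 42.9% of all genes were called. Arg1, the arginase of the urea cycle, averaged 59.4 ± 3.5 CPM in KO FAC and 2.61 ± 0.70 CPM in WT FAC cells (4.50 ± 0.14), and 40.8 ± 3.7 CPM in KO AC and 1.69 ± 0.01 CPM in WT AC cells (4.59 ± 0.15). Gnmt, which methylates glycine, averaged 184 ± 15.5 CPM in KO FAC and 5.55 ± 1.13 CPM in WT FAC cells (5.05 ± 0.15). Glul, which makes glutamine, averaged 96.1 ± 4.7 CPM in WT FAC and 141 ± 10 CPM in WT AC cells (−0.55 ± 0.13, edgeR adjusted p = 0.0112), the direction of Slc38a3 in those cells. Gpt2, a mitochondrial alanine transaminase, fell with FAC in KO (−0.87 ± 0.11) and WT cells (−0.94 ± 0.11), while the cytosolic form Gpt rose in KO (0.54 ± 0.08) and WT cells (0.66 ± 0.09).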

How the data were processed

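RNA of 12 hepatocyte libraries was sequenced on a BGISEQ-500, per the labels' protocols. Per the submitters' processing notes, the tool was RSEM and the builds named are mm10 and GRCm38.p6; the sources used here do not give the aligner, annotation release, strand setting or filters. The authors deposited estimated counts per gene without normalization, FPKM (scaled for transcript length and depth) and TPM (scaled to the same sum in each library). Reads of overlapping or antisense genes cannot be told apart without strand. Estimated counts were rounded, filtered with filterByExpr (minimum count 10, 12275 of 16728 genes kept), scaled by TMM and fitted over all 12 libraries with the robust quasi-likelihood model of edgeR 4.0.16 in R 4.3.3. P-values were adjusted by Benjamini-Hochberg over all tested genes (threshold 0.05), and the SE is the log2 fold change over the root of the F statistic. No library pair of a group agreed within sampling noise. Alternatives used limma 3.58.1 on log2(FPKM + 1), log2(FPKM + 0.1) and log2(TPM + 1), DESeq2 1.42.0, median-of-ratios scaling, other filters, fits of the compared groups alone, the replicate number as a block and each library left out. Fits without 2 KO libraries were added after seeing the data. The fits were tested on simulated data with independent libraries. These held no division like that of KO libraries on the third component, so the simulation does not cover it. Transporters and lists were chosen with earlier results of these data known. All 9 transporters are named throughout, with Slc3a2; other list genes come from the up to 5 called list genes per comparison with the greatest fold and a group mean of 1 FPKM or more, and a result on a listed enzyme is not reported here. Figures were drawn with matplotlib 3.10.9.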

Additional observations from a re-analysis of the deposited data

Results flagged for a closer look

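The effect of FAC in KO minus that in WT cells passed the test of the difference for 9 of the genes described (edgeR adjusted p under 0.05). Among the transporters these were Slc38a3, at 1.22 on the log2 scale (adjusted p = 0.00124), and Slc38a4, at 0.50 (adjusted p = 0.00658). Slc7a3 was at 1.23 (adjusted p = 0.0446), and its call was lost in 18 of its 21 alternative fits.

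Of the amino acid response genes, the transcription factor gene Ddit3 (−1.13) and the hormone gene Stc2 (−1.09) had smaller values in KO than in WT cells, and the serine synthesis genes Phgdh (0.94), Psat1 (0.90) and Psph (0.55) larger ones. These serine synthesis genes were lower in KO AC than in WT AC cells. Their means were 26.3 against 71.6 CPM (Phgdh), 60.1 against 122 CPM (Psat1) and 15.1 against 28.7 CPM (Psph). Of the enzymes, Cps1, which starts the urea cycle, was at 1.18. The call of Stc2 was lost in 15 and that of Psph in 10 of 22 alternative fits, and those of Ddit3, Phgdh, Psat1 and Cps1 in none.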

How the results depend on the processing

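Of 764 recomputed log2 fold changes of the 9 transporters, 692 kept direction and side of the threshold, 22 lost a call, 11 gained one and 39 changed sign, none of these a called value. The number of transporters called was 2 to 3 without 1 library for FAC in WT cells (4 in the fit reported) and 1 to 2 for FAC in KO cells (2). It was 1 for FAC in KO cells in the fit of those groups alone and without KO AC 1 and KO FAC 6, and 1 to 2 without 1 library for KO under AC (2). For KO under FAC a filter at 5 FPKM left 3 of 5, since fewer genes are tested. Titles share a replicate number between genotypes only (FAC and AC share none). Deviations of same-numbered libraries correlated at −0.14 to 0.21, so the numbers are not taken as pairs. A replicate block left 1 of 2 transporters for KO under AC (Slc38a2 at −0.22, edgeR adjusted p = 0.0583), 5 for KO under FAC and 2 for the difference.

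Sign changes with 1 library left out gave ranges, for FAC in WT cells, of −0.0118 to 0.179 (Slc7a2) and −0.177 to 0.0116 (Slc7a5). For FAC in KO cells they were −0.995 to 0.445 (Slc7a2), −0.0557 to 0.111 (Slc1a4) and −0.155 to 0.0407 (Slc6a9), and for the difference −1.07 to 0.372 (Slc7a2). For KO under AC they were −0.0303 to 0.0174 (Slc38a4), −0.266 to 0.245 (Slc7a2) and −0.0386 to 0.111 (Slc6a9), and for KO under FAC −1.12 to 0.324 (Slc7a2). With TPM values, whose median over all genes shifted by −0.10 with FAC in WT, −0.15 with FAC in KO, −0.11 for KO under AC and −0.17 for KO under FAC, signs turned for FAC in WT at Slc7a2 (−0.0571) and Slc6a9 (−0.0525), for FAC in KO at Slc38a2 (−0.0695) and Slc1a4 (−0.14), for KO under AC at Slc6a9 (−0.11) and Slc3a2 (−0.000266), and for KO under FAC at Slc7a5 (−0.0184) and Slc1a4 (−0.0545). On FPKM with 1 or 0.1 added, Slc1a4 was at −0.0407 and −0.0423 for FAC in KO and Slc6a9 at −0.0617 and −0.0630 for KO under AC. Slc38a4 for KO under AC was at 0.00430 with median-of-ratios scaling, 0.00428 with DESeq2 and 0.000416 without a filter. Without KO AC 1 and KO FAC 6, Slc7a2 was at 0.16 and Slc1a4 at −0.15 for FAC in KO, and Slc7a2 at 0.0802 for the difference, 0.24 for KO under AC and 0.33 for KO under FAC. Without KO AC 1 and KO FAC 4, Slc7a2 was at 0.25 for KO under AC. The causes were not tested.

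Called counts ranged over the alternatives, for FAC in WT, from 1250 to 3345 of all genes (2117), 3 to 8 of the other transporters (6) and 5 to 13 of the enzymes (10). For FAC in KO they ranged from 2199 to 4783 of all genes (3633), 10 to 18 of the response genes (17) and 4 to 10 of the sensing genes (7). For the difference they ranged from 84 with the replicate block to 1918 without KO AC 1 and KO FAC 4 for all genes (387), and over 0 to 5 (1), 3 to 10 (7), 0 to 6 (0) and 1 to 5 (2) for the transporters, response, sensing and enzyme lists. For the other transporters they ranged from 6 to 12 for KO under AC (10) and from 7 to 13 for KO under FAC (11), and for the sensing list under FAC from 4 to 11 (8). Of genes called with FAC, TPM values gave 18.5% higher in KO (50.6% in the fit reported) and 22.9% in WT cells (50.4%). Slc43a1, at 9 to 65 reads a library, is limited by depth.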

Other observations

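Genes that sense amino acids upstream of the kinase mTORC1 were listed as 25, of which 23 were tested. With FAC, 4 were higher and 3 lower in KO cells, a share near the 29.6% of all genes called, and 7 higher and 2 lower in WT cells, where 17.2% of all genes were called. Rragd, a small GTPase of the lysosomal sensor, averaged 43.2 ± 3.65 CPM in WT FAC and 29.1 ± 1.3 CPM in WT AC cells (SD, n = 3; 0.57 ± 0.09, SE, edgeR adjusted p = 0.000918). Lamtor3, of the scaffold that anchors it, rose by 0.54 ± 0.11 in WT cells. Rptor, the raptor subunit of mTORC1, averaged 36.9 ± 3.2 CPM in KO FAC and 53.3 ± 6.2 CPM in KO AC cells (−0.53 ± 0.09, edgeR adjusted p = 0.00122).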
